A study of Homo sapiens with 4 samples.

Results

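Chromatin accessibility at the histone genes was measured in TMD8 cells with and without silencing of IRF4. The genes were all protein-coding genes of the RefSeq gene table (GRCh38.p14) whose symbols begin with H1-, H2AC, H2BC, H3C or H4C, which gave 74 of 20037 protein-coding genes. They comprised 10 linker H1, 17 H2A, 19 H2B, 13 H3 and 15 H4 genes. A stretch of accessible DNA over which reads were counted, here called an interval, was assigned to a histone gene when its midpoint lay inside the gene body or within 5 kb of a gene end. By this rule 70 genes had at least 1 interval, and H2AC1, H2BC1, H2AC25 and H2BC26 had none. The 70 genes held 75 of the 73135 intervals, and all 75 passed the filter on low counts. Histone genes lie close together, so 45 of the 75 intervals belonged to 2 or more of them, and the most crowded intervals to 5.

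The assay was ATAC-seq: a transposase inserts sequencing adapters where DNA is not wrapped in nucleosomes, so the count of insertions in an interval measures how open it is. TMD8 is an established line of diffuse large B cell lymphoma of the activated B cell (ABC) type. The control group was 2 libraries from cells given a scrambled short hairpin RNA (shRNA), and the shIRF4 group was 2 libraries from cells given an shRNA against IRF4, a transcription factor of activated B cells and plasma cells. All 4 libraries came from the same line, and the sample titles write shIRF4 where the library names write siIRF4. The labels give no time after silencing and do not say whether libraries of a group came from separate cultures, so p-values measure only the spread between these libraries, which may be technical.

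Most histone genes are replication-dependent: they are transcribed in S phase, when new DNA must be packaged, and their short mRNAs end in a stem-loop in place of a poly(A) tail. They lie in clusters, the largest of them on the short arm of chromosome 6 and a smaller one on chromosome 1, which are brought together with the activator NPAT in nuclear histone locus bodies. H2A, H2B, H3 and H4 form the core of the nucleosome, H2A and H2B as a dimer, and many H2A and H2B genes are transcribed away from each other from a shared promoter. Linker H1 proteins bind the DNA between nucleosomes.

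Shared promoters accounted for 13 pairs of genes whose starts point away from each other with 193 to 978 bases between them. Of these pairs, 11 joined an H2A to an H2B gene, and H3C4/H2BC7 and H2AC7/H2BC7 used the same stretch of DNA because H3C4 has a second annotated start at that of H2AC7. In 10 pairs both starts lay in 1 interval. The sequences between the starts are shown for 2 pairs whose interval fell in shIRF4 (H2BC8/H2AC8 and H2AC14/H2BC14) and for 2 pairs with a brighter interval that did not pass the test (H2BC11/H2AC11 and H2AC17/H2BC17). The 250 bases before the starts of H2BC3 and H3C3 are shown because their shared interval had the smallest p-value of the 75. All are RefSeq sequence of GRCh38.p14, read 5′ to 3′, the pairs along the plus strand and H2BC3 along its own minus strand. Capitals mark the octamer ATTTGCAT, the CCAAT box and the TATA box TATAAA on either strand, and adjacent or overlapping matches run together.
H2BC8/H2AC8, chr6:26216689-26216920, fell: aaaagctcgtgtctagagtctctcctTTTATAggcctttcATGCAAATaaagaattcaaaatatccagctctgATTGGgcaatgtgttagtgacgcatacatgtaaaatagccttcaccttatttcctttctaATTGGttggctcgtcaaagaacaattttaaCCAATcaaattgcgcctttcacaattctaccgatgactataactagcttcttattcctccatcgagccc
H2AC14/H2BC14, chr6:27814778-27815021, fell: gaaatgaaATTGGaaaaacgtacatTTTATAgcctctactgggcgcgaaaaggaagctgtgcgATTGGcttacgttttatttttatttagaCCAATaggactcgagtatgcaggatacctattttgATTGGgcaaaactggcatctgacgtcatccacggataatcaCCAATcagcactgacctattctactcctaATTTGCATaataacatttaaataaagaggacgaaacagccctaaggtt
H2BC11/H2AC11, chr6:27132796-27133042, did not pass: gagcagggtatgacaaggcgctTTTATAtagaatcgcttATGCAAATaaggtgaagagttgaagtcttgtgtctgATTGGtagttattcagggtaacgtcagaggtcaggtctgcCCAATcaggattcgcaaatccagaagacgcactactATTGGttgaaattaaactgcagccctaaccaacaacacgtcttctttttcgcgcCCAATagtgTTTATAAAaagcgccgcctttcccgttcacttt
H2AC17/H2BC17, chr6:27893186-27893424, did not pass: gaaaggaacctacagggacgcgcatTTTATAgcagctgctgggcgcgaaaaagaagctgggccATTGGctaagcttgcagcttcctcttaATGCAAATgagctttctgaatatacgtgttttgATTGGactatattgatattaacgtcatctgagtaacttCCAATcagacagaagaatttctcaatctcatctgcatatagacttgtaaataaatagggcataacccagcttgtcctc
H2BC3, chr6:26043714-26043963, minus strand, fell: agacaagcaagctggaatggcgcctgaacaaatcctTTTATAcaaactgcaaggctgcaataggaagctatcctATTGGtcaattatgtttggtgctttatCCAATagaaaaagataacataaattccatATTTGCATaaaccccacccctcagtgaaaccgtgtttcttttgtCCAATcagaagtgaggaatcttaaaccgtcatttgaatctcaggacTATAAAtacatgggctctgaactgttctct
H3C3, chr6:26045134-26045383, plus strand, fell: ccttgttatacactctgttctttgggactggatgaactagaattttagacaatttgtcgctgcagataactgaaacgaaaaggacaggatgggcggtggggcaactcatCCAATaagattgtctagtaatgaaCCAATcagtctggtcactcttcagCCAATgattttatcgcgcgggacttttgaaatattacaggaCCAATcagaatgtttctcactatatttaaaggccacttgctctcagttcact

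The octamer, which binds the factors OCT1 and OCT2, was present in both pairs that fell and in both that did not pass, and it was in the window of H2BC3 but not in that of H3C3. Across the 67 histone genes with a promoter window in the RefSeq table (250 bases before to 50 after the start), the octamer was found in 38.8% of windows, against 1.7% of all 15843 protein-coding windows. It was found in 77.8% of H2B and 68.8% of H2A windows and in no H1 or H4 window. Among H3 windows it was found only in that of H3C4, which is the same stretch as the H2AC7 window. CCAAT, the NF-Y motif, was in 83.6% of histone windows against 36.4% of all windows, and TATAAA was in 64.2% against 9.63%. The H4 windows stood apart here as well, with CCAAT in 23.1% of them.

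Motifs of interferon-stimulated, ETS-IRF and AP-1 elements were each in few of these windows. The core of the interferon-stimulated response element (GAAA, any 2 bases, GAAA) was in 7.46% of histone windows (5 of 67, 3 of them H2B and 2 H3) against 3.17% of all windows. The ETS-IRF composite element (GGAA, any 2 bases, GAAA), which can overlap the former, was in 1.49% against 2.5%. TGANTCA, the AP-1 motif, was in 1.49% against 5.75%, and its composites with an IRF site were not searched. Among the 13 windows that lay in intervals that fell in shIRF4, the response element core was in 0.0%, against 9.09% of the 44 windows in intervals that did not pass; the composite element was found at H3C2 alone and TGANTCA at H3C8 alone. The octamer was in 53.8% of those 13 windows and in 36.4% of those 44, and CCAAT in 84.6% and 81.8%. Windows of a shared promoter overlap, so they are not separate: the 1 octamer of H2BC8/H2AC8 and that of H2AC14/H2BC14 each counted for 2 windows. The E2F motif TTTCGCGC was in 17.9% of histone windows against 0.814% of all windows, and TTTGGCGC was in 0.0% against 0.89%. A match describes the letters only and does not show binding.

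The 4 libraries held 9112860 to 17954924 counts over all intervals, and the histone intervals took 0.249 to 0.265% of them. The second shIRF4 library was the least deep and had the lowest histone share. The B cell markers fixed for the check all had intervals (7 of 7 genes, summed level 1478.5 to 1560.8 counts per 1000000 counts of the library, CPM). T cell markers summed to 65.0 to 76.0 CPM with no interval at CD3D or CD2, myeloid markers to 33.6 to 41.8 CPM with none at MPO, and epithelial and fibroblast markers to 63.8 to 66.4 CPM with none at KRT18. In these bulk samples, a change in the number of cells with an open site and a change within each cell cannot be told apart. IRF4 level and histone mRNA are not measured by these counts.

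Histone intervals were brighter than most. Their median control level was 23.2 CPM against 6.39 CPM over all 73028 tested intervals, partly because they were longer, with a median of 1604 bp against 553 bp. Per kb of interval the medians were 17.3 and 12.9 CPM. The 40 histone intervals that overlapped a histone promoter window had a median of 54.5 CPM (range 11.3 to 138.7), and the other 35 had a median of 4.99 CPM (range 1.61 to 45.7). Over the 11223 intervals at a promoter window of any gene the median was 26.2 CPM.

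Most histone promoters in the RefSeq table were open, and several of the exceptions were genes of germ cells. Of the 67 windows, 57 were overlapped by an interval. The 10 without one were those of H2AC1 and H2BC1, which encode testis histones, H1-1, H1-6 and H1-7, of which H1-6 and H1-7 are testis linker histones, H1-8, the oocyte linker histone, H2AC25, H2BC26, H2BC6 and H4C7. Promoter intervals were brightest for H2A and H2B genes (medians 80.9 and 78.6 CPM), followed by H1 (66.5 CPM), H3 (52.1 CPM) and H4 (42.6 CPM). These ranges overlapped widely, and neighbours in the order share intervals, so the order is a description.

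Accessibility at the histone genes changed little in shIRF4 against control. By the edgeR quasi-likelihood test with Benjamini-Hochberg adjustment over all tested intervals, 9 of the 75 histone intervals fell and 2 rose. This is 14.7% called, against 22.8% of all intervals, of which 15.5% fell and 7.26% rose. The median log2 fold change was -0.04, against 0.01 over all intervals, and single values ran from -0.57 to 0.63. Only 1 of the 11 called intervals, at H2BC5, changed by at least 1.5-fold. DESeq2 called none of the 75 (0 lower and 0 higher), where it called 5.07% of all intervals lower and 1.17% higher. At an unadjusted p under 0.05 DESeq2 gave 4 lower and 2 higher histone intervals, against 8202 and 3197 of all 73028 intervals. By the same cut edgeR gave 17 lower and 5 higher, against 15338 and 9554 of all 73028. With library totals in place of scaling factors, a setting that moved the median of all intervals to 0.06, the split became 4 lower and 4 higher, against 13.6% and 9.83% of all intervals.

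**Figure D1:**
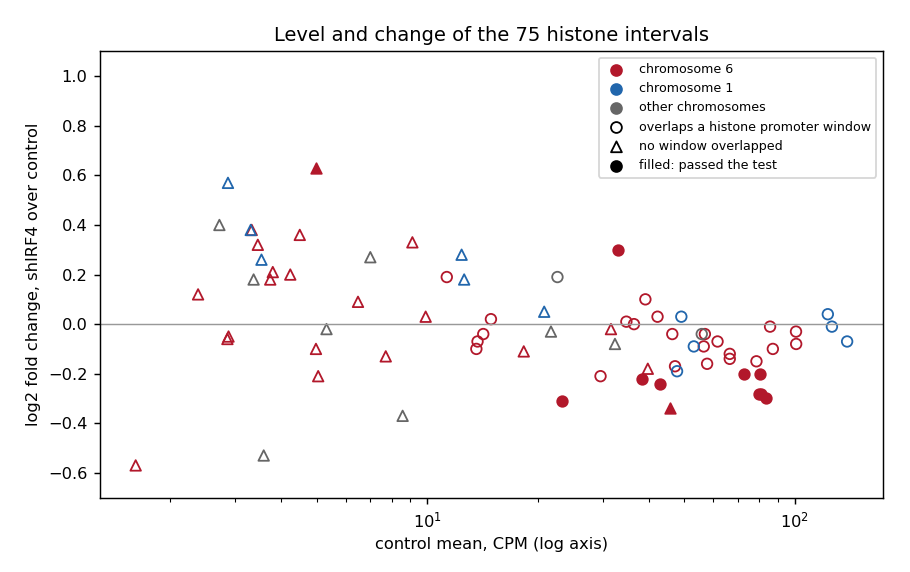
Each symbol is 1 of the 75 histone intervals, with its mean control level in CPM on a log axis and its log2 fold change in shIRF4 against control. Filled symbols passed the edgeR test: all 11 are on chromosome 6, and of the 9 below the line 8 are circles, which overlap a histone promoter window, with control means from 23.2 to 83.6 CPM.

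Both shIRF4 libraries lay below both control libraries at 27 intervals, a pattern that 30.3% of all intervals showed, and above both at 17, against 28.7% of all intervals. At the remaining 31 the groups overlapped. The groups did not overlap at any of the 11 called intervals, but the test itself favours separated groups, so this is no further support for the calls. The second shIRF4 library was the lowest of the 4 at 8 of the 9 that fell. Without that library the test gave 9 lower and 5 higher histone intervals, against 18.0% and 9.36% of all intervals, and 7 of the 9 falls were kept.

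Most falls were at promoters. Of the 40 intervals over a histone promoter window, 8 fell and 1 rose, with a median log2 fold change of -0.08. Of the 11223 intervals over a promoter window of any gene, 4.95% fell and 4.97% rose, with a median of 0.04. Bright promoters gave a similar picture: at 50 CPM or more in control, 5 of 21 histone promoter intervals fell and 0 rose, against 6.65% and 4.92% of 2031. Of the 35 histone intervals without a window, 1 fell and 1 rose; the fall was at H3C12, a gene whose promoter is not in the RefSeq table.

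The 3 falls of smallest p were at H2BC3/H3C3, H3C2/H2AC4 and H2AC16/H1-5, each a bright interval over 2 genes. The interval over H2BC3 and H3C3, whose upstream sequences are given above, lies at chr6:26043110-26046316. It measured 80.7 and 86.5 CPM in the control libraries and 69.2 and 66.1 CPM in the shIRF4 libraries. It fell from 83.6 ± 4.11 to 67.6 ± 2.16 CPM (SD, n = 2), a log2 fold change of -0.30 ± 0.06 (SE, adjusted p = 0.00105). Both shIRF4 libraries were well below both control libraries, but without control replicate 2 the adjusted p was 0.0536 at a log2 fold change of -0.25.

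The interval over H3C2 and H2AC4, a core H3 and a core H2A gene, lies to the left of it, at chr6:26031330-26034308. It measured 83.1 and 76.5 CPM in control and 65.7 and 65.2 CPM in shIRF4, with a log2 fold change of -0.28 ± 0.06 (SE, adjusted p = 0.00207). The shIRF4 libraries were nearly equal and the control libraries spread more widely. Without control replicate 1 the log2 fold change was -0.22 and the adjusted p 0.102. The interval over H2AC16 and the linker histone gene H1-5, at chr6:27864863-27868128, measured 77.5 and 84.3 CPM in control and 68.8 and 63.8 CPM in shIRF4. Its log2 fold change was -0.28 ± 0.07 (SE, adjusted p = 0.00276), and without control replicate 2 it was -0.22 (adjusted p = 0.107).

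The fall that held most widely was at H3C12, which encodes a core H3. Its interval, at chr6:27889457-27891364, measured 44.9 and 46.5 CPM in control and 38.6 and 32.4 CPM in shIRF4, a log2 fold change of -0.34 ± 0.08 (SE, adjusted p = 0.00334). It passed the edgeR test whichever library was left out. No other called histone interval did. In the adjacent interval, chr6:27891904-27896328, which covers the shared promoter of H2AC17 and H2BC17, the groups overlapped: 84.9 and 86.3 CPM in control against 84.6 and 85.5 CPM in shIRF4 (log2 fold change -0.01, adjusted p = 0.933).

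Smaller falls lay at 2 shared H2A/H2B promoters. The H2BC8/H2AC8 interval (chr6:26214946-26218301) measured 81.7 and 79.5 CPM in control and 72.8 and 66.4 CPM in shIRF4, with a log2 fold change of -0.20 ± 0.06 (SE, adjusted p = 0.0229). The H2AC14/H2BC14 interval (chr6:27813519-27816320) measured 72.5 and 72.8 CPM in control and 65.6 and 60.2 CPM in shIRF4, with a log2 fold change of -0.20 ± 0.06 (SE, adjusted p = 0.0273). Neither passed without control replicate 1 (adjusted p = 0.194 and 0.149) or without control replicate 2 (adjusted p = 0.0935 and 0.169). By comparison, the H2BC11/H2AC11 interval (chr6:27131321-27134968), printed beside them, measured 102.5 and 98.9 CPM in control and 98.9 and 98.3 CPM in shIRF4 (log2 fold change -0.03, adjusted p = 0.764).

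The remaining falls were at the start of H3C8 and at 2 H4 genes. The H3C8 interval (chr6:26270595-26271861) measured 22.3 and 24.2 CPM in control and 17.9 and 20.1 CPM in shIRF4, with a log2 fold change of -0.31 ± 0.10 (SE, adjusted p = 0.0227). H3C8 was the fall in which the first shIRF4 library was the lowest, and it did not pass without control replicate 2 (log2 fold change -0.25, adjusted p = 0.258) or shIRF4 replicate 1 (-0.20, adjusted p = 0.282). The adjacent interval over the H2BC10 promoter, chr6:26272149-26274244, had a log2 fold change of -0.04 (adjusted p = 0.781).

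H4C11 and H4C12 encode the same H4 protein, and their promoter windows were identical at 295 of 300 bases, so reads of the 2 cannot be told apart with certainty. The H4C11 interval (chr6:27823690-27825396) measured 46.4 and 39.5 CPM in control and 37.2 and 35.1 CPM in shIRF4, with a log2 fold change of -0.24 ± 0.08 (SE, adjusted p = 0.038). The H4C12 interval (chr6:27830415-27831923) measured 38.1 and 38.5 CPM in control and 34.1 and 31.2 CPM in shIRF4, with a log2 fold change of -0.22 ± 0.08 (SE, adjusted p = 0.044). Each lost its call in 3 of the 4 fits that left out a library, most clearly H4C11 without control replicate 1 (log2 fold change -0.12, adjusted p = 0.554). H4C12 gave -0.23 and -0.21 when control replicate 1 or 2 was left out (adjusted p = 0.176 and 0.228), and -0.17 when shIRF4 replicate 2 was (adjusted p = 0.0849). H4C11 gave -0.27 and -0.20 without shIRF4 replicates 1 and 2 (adjusted p = 0.0639 and 0.0541).

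Both rises were in the same chromosome 6 stretch as 4 of the falls. A weak interval inside the body of the H2B gene H2BC5 (chr6:26159296-26160221), next to the linker histone gene H1-4, measured 4.61 and 5.36 CPM in control and 7.27 and 8.51 CPM in shIRF4. Its log2 fold change was 0.63 ± 0.17 (SE, adjusted p = 0.00917), and without control replicate 1 it was 0.53 (adjusted p = 0.105). The interval just to its left (chr6:26156174-26159182), which covers the starts of H1-4 and H2BC5 and is the brightest of that stretch, measured 103.0 and 98.5 CPM in control and 99.6 and 90.2 CPM in shIRF4 (log2 fold change -0.08, adjusted p = 0.388). The other rise was at H3C4 (chr6:26195258-26197680), with 33.8 and 32.1 CPM in control and 40.8 and 40.1 CPM in shIRF4. Its log2 fold change was 0.30 ± 0.08 (SE, adjusted p = 0.0059), and without control replicate 2 it was 0.26 (adjusted p = 0.116). The next interval, over the H2AC7/H2BC7 promoter and the second start of H3C4 (chr6:26197903-26200497), had a log2 fold change of -0.14 (adjusted p = 0.16).

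**Figure D2:**
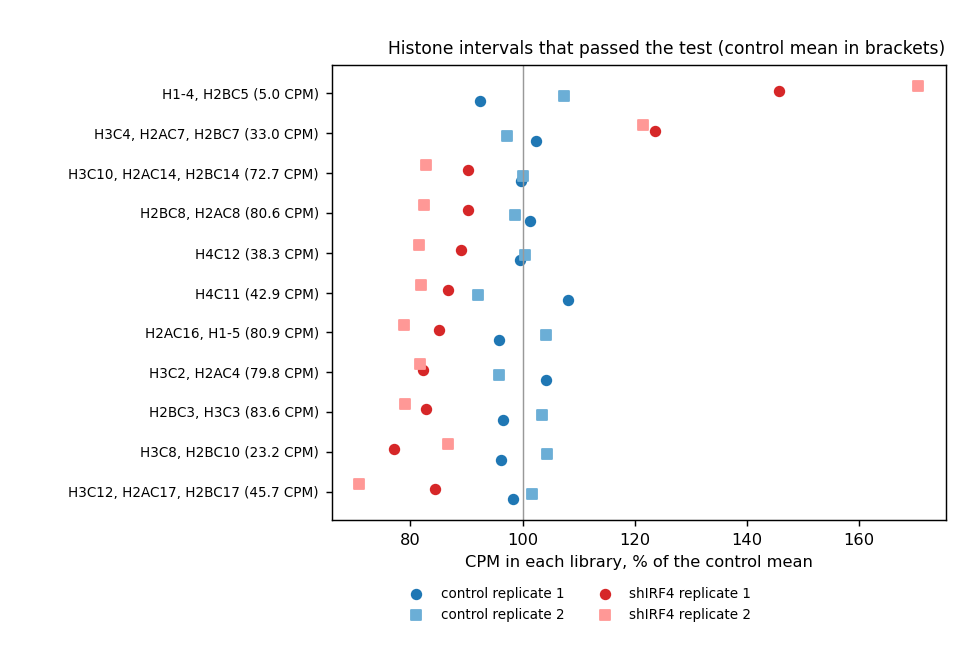
The level of each library as a percentage of the control mean at the 11 histone intervals that passed the edgeR test, labelled with the histone genes within 5 kb and the control mean in CPM. At the 2 upper intervals both shIRF4 libraries lie right of both control libraries, and at the other 9 they lie left of them.

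All 11 called intervals were among the 53 on chromosome 6, of which 20.8% were called, against 22.1% of all 3045 tested intervals of that chromosome. Of the 32 on chromosome 6 that overlap a histone promoter window 28.1% were called, against 7.44% of all 618 promoter intervals there. None of the 22 histone intervals elsewhere passed, where 22.8% of all tested intervals and 9.92% of promoter intervals of any gene did. These 22 include the 6 histone promoter intervals of chromosome 1. At an unadjusted p under 0.05 edgeR gave 3 lower and 2 higher of the 22, against 15338 and 9554 of all 73028 intervals. DESeq2 gave 0 and 0, against 8202 and 3197. The histone genes of chromosome 6 form 3 stretches when members less than 300 kb apart are joined. The largest, H2AC1 to H4C8, holds 34 genes and 35 intervals over 559.5 kb and had 4 falls and 2 rises. The last, H2BC13 to H2BC17, holds 16 genes and 14 intervals over 86.4 kb and had 5 falls and no rise. The middle one, H2BC11 to H2AC12, holds 5 genes and 4 intervals over 15.2 kb and had neither, also at an unadjusted p under 0.05 by edgeR and by DESeq2 (0 each).

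**Figure D3:**
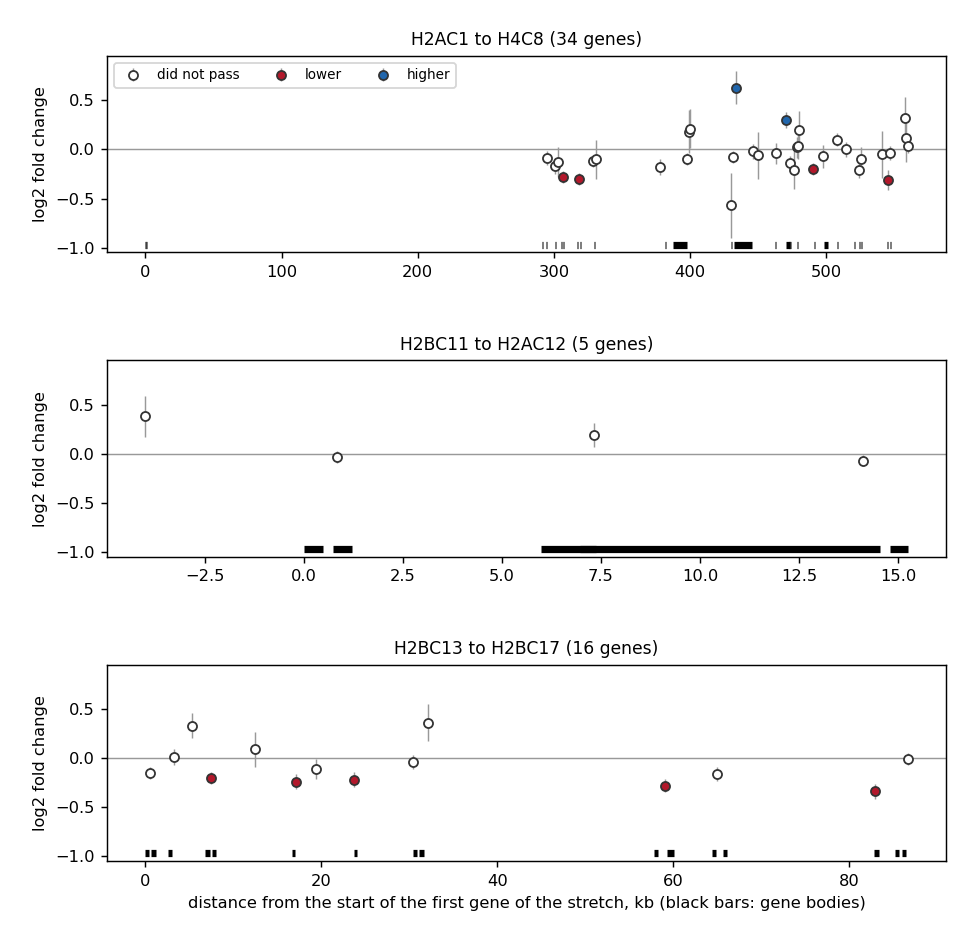
Log2 fold change (shIRF4 over control) of each histone interval along the 3 chromosome 6 stretches, against distance in kb from the start of the first gene, with bars of 1 SE and black bars for gene bodies. Red points fell and blue points rose; the 4 falls and 2 rises of the upper panel and the 5 falls of the lower panel lie between intervals that did not pass, and the middle panel has no filled point.

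Summed counts were lower in shIRF4 in the largest and the last stretch of chromosome 6. The H2BC13 to H2BC17 intervals summed to 623.7 and 641.5 CPM in control and 587.9 and 555.6 CPM in shIRF4, a difference of -9.62%. The H2AC1 to H4C8 intervals summed to 1104.3 and 1104.3 CPM in control and 1053.7 and 1001.2 CPM in shIRF4, a difference of -6.96%. In both stretches each shIRF4 library was below each control library, and in both the second shIRF4 library was the lower. The exact two-sided permutation test gave p = 0.333 for each, the smallest that 2 against 2 libraries allow.

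In most other stretches and lone genes the groups overlapped. The chromosome 1 cluster, H2BC18 to H2AC21, summed to 582.4 and 604.0 CPM in control and 594.9 and 582.4 CPM in shIRF4 (exact permutation p = 1.0). The H2BC11 to H2AC12 sums were 180.0 and 173.9 CPM in control and 175.8 and 172.4 CPM in shIRF4 (exact permutation p = 0.667). They also overlapped at the lone H4 gene of chromosome 12, H4C16, which summed to 87.3 and 89.3 CPM in control and 88.2 and 81.2 CPM in shIRF4. H2BC12L on chromosome 21 had 1 weak interval in which both shIRF4 libraries were below both control libraries, with 4.28 and 2.9 CPM in control and 2.82 and 1.75 CPM in shIRF4 (log2 fold change -0.53, adjusted p = 0.145). Over all 75 intervals the sums were 2654.0 and 2686.5 CPM in control and 2575.9 and 2472.8 CPM in shIRF4, a difference of -5.46% (exact permutation p = 0.333).

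**Figure D4:**
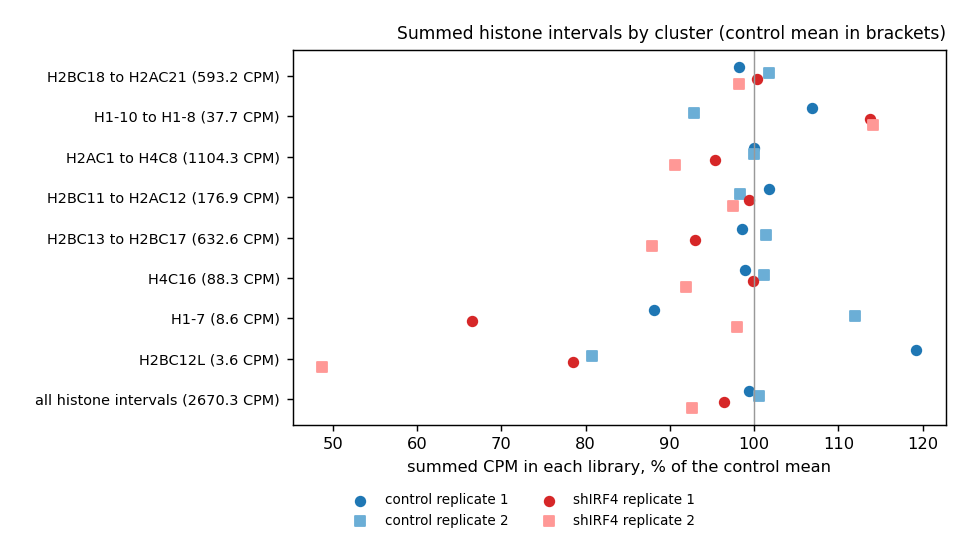
Summed CPM of the histone intervals of 8 clusters and lone genes, and of all histone intervals, in each library, as a percentage of the control mean given in brackets. Both shIRF4 libraries lie left of both control libraries for H2AC1 to H4C8, H2BC13 to H2BC17, H2BC12L and the sum of all histone intervals, and right of them for H1-10 to H1-8.

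Intervals around the stretches gave a background for their calls. Within 500 kb of H2BC13 to H2BC17, 6 of 46 intervals that belong to no histone gene fell and 0 rose, with a median log2 fold change of -0.02, beside 5 of 14 histone intervals with a median of -0.13. Around H2AC1 to H4C8, 4 of 56 fell and 3 rose, with a median of 0.03, beside the 4 falls and 2 rises among 35 histone intervals with a median of -0.07. Around the chromosome 1 cluster 2 fell and 2 rose of 36, beside none of 12. The difference between histone intervals and their neighbours was not tested.

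By type, every class of histone gene had at least 1 fall among its promoter intervals. The counts were 1 of 5 for H1, 4 of 13 for H2A, 3 of 15 for H2B, 3 of 12 for H3 and 2 of 12 for H4, with shared intervals counted under each type. Of the promoter intervals of any gene 4.95% fell, and of all tested intervals 15.5%. The types were not compared by a test. The only rise was at an H3 gene, H3C4. Median log2 fold changes were -0.08 for H1, -0.10 for H2A, -0.10 for H2B, -0.11 for H3 and -0.04 for H4.

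The linker histone genes H1-1 to H1-5 lie in the chromosome 6 stretches and are replication-dependent, while H1-10 is expressed outside S phase and lies away from them. Besides the fall at H1-5, the intervals over H1-2 (chr6:26053416-26056812) and H1-3 (chr6:26232708-26235136) had log2 fold changes of -0.12 and 0.10 and did not pass (adjusted p = 0.204 and 0.373). The brighter H1-10 interval (chr3:129314651-129317020) measured 24.3 and 20.9 CPM in control and 26.2 and 24.9 CPM in shIRF4 (log2 fold change 0.19, adjusted p = 0.164), and its weak neighbour at chr3:129317983-129318287 had a log2 fold change of 0.40 (adjusted p = 0.211). The H1-10 and H1-8 intervals summed to 40.3 and 35.0 CPM in control and 42.9 and 43.0 CPM in shIRF4, a difference of 14.1% with both shIRF4 libraries above both control libraries (exact permutation p = 0.333, the smallest possible). H1-7 had 1 interval (chr12:48332235-48333303) with 7.55 and 9.6 CPM in control and 5.7 and 8.4 CPM in shIRF4, a log2 fold change of -0.37 (adjusted p = 0.14) that rested on single libraries. It was -0.60 (adjusted p = 0.00921) without shIRF4 replicate 2, -0.03 (adjusted p = 0.952) without shIRF4 replicate 1, and -0.17 (adjusted p = 0.711) without control replicate 2.

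When the counts of all intervals of a gene were summed before testing, 20 of the 70 histone genes were lower and 0 higher (31 and 1 at an unadjusted p under 0.05). Of all 16295 genes, 11.3% were lower and 5.52% higher (2794 and 2041 genes at an unadjusted p under 0.05). The 20 genes rested on 13 different sets of intervals, since neighbours share them, so they are not 20 separate results. The median log2 fold change over the 70 genes was -0.09, against 0.01 over all genes.

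The lowest p-values on summed counts were again at the same 3 places. H2BC3 and H3C3, which share 1 interval, had a log2 fold change of -0.32 ± 0.05 (SE, adjusted p = 0.00033). H2AC4 had -0.29 (adjusted p = 0.000688), H2AC16 -0.30 (adjusted p = 0.00107), H3C2 -0.26 (adjusted p = 0.00115) and H1-5 -0.25 (adjusted p = 0.00139). DESeq2 called these 6 genes and no other histone gene, giving 6 lower and 0 higher, against 4.5% and 1.02% of all genes. Of them, H1-5 did not pass without control replicate 2 (log2 fold change -0.20, adjusted p = 0.0603), and the other 5 passed whichever library was left out.

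The further 14 genes had log2 fold changes from -0.22 to -0.14. H2BC8 and H2AC8, on their shared interval, had -0.22 (adjusted p = 0.00744), and without control replicate 1 the value was -0.20 (adjusted p = 0.0736). H3C13, the only one outside chromosome 6, had -0.20 (adjusted p = 0.0305), while its 1 interval (chr1:149811512-149813852) did not pass in the fit over intervals (adjusted p = 0.0689). H4C1 had -0.14 (adjusted p = 0.035), and H4C7, H3C7 and H2BC9, which share 2 intervals, had -0.19 (adjusted p = 0.0417). H4C11 had -0.19 and H4C12 -0.21 (adjusted p = 0.0352 and 0.0256), H3C11 and H4C13 had -0.18 (adjusted p = 0.0276), and H3C12, H2AC17 and H2BC17 had -0.14 (adjusted p = 0.0417). The 1 interval of H3C11 and H4C13 did not pass in the edgeR fit over intervals (adjusted p = 0.0825). Neither did the 2 intervals of H4C1 (adjusted p = 0.384 and 0.121). The 2 shared by H4C7, H3C7 and H2BC9 did not pass either (adjusted p = 0.0773 and 0.612). The 5 kb limit decided some of the calls on summed counts, because a gene can take in its neighbour's interval. With a limit of 1 kb, H2AC17 and H2BC17 had -0.03 (adjusted p = 0.715) and H3C12 -0.36 (adjusted p = 0.00241), so the call of the H2AC17/H2BC17 pair came from the H3C12 interval; with 10 kb the pair had -0.11 (adjusted p = 0.0776). At 1 kb H4C1 had -0.11 (adjusted p = 0.201) and H2BC9 -0.12 (adjusted p = 0.538), and at 10 kb H4C7 and H3C7 had -0.11 (adjusted p = 0.126).

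None of these 14 genes passed without control replicate 1, which left 6 histone genes lower against 6.58% of all genes. Without control replicate 2, 8 histone genes were lower against 6.83% of all genes.

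The chromosome 1 cluster holds near-copies, whose reads cannot be assigned with certainty. The promoter windows of H4C14 and H4C15 were identical at 300 of 300 bases, and those of H3C14/H3C15 and H2AC18/H2AC19 shared 98.6% and 99.6% of their 20-base words. The interval at chr1:149838807-149843768, over H3C14 and H2AC18, measured 120.9 and 125.0 CPM in control and 124.5 and 128.6 CPM in shIRF4. The interval over their copies H3C15 and H2AC19 (chr1:149849843-149854784) measured 124.8 and 127.4 CPM in control and 126.0 and 124.0 CPM in shIRF4. The 2 near-copies thus had like levels, and neither passed the test (adjusted p = 0.656 and 0.912). The brightest histone interval of all, chr1:149884513-149888937 over H2BC21, H2AC20 and H2AC21, measured 134.9 and 142.5 CPM in control and 134.9 and 128.7 CPM in shIRF4 (log2 fold change -0.07, adjusted p = 0.386).

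The distance limit of the rule sets only which intervals are read, since the fit over intervals was run on all of them. Limits of 1 kb and 10 kb also gave 9 falls and 2 rises, but among 55 and 87 intervals in place of 75. The share called thus depends on the limit, beside 22.8% of all intervals. By distance to the nearest histone gene, the farthest intervals within the limit were at H1-8, 4556 bp away (5.32 CPM in control and 5.33 CPM in shIRF4), and H2BC5, 4253 bp away (2.86 and 2.69 CPM). The nearest ones left out were at H2BC11, 5202 bp away (11.3 and 12.8 CPM), and H2AC1, 5371 bp away (4.27 and 5.5 CPM).

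Other genes of histone supply were called no more often than all intervals, of which 22.8% were called. Among 17 genes of histone mRNA synthesis and processing, 11 of 59 intervals fell and 2 rose (22.0% called, median log2 fold change 0.02). The 3 intervals of smallest p all fell, 2 of them at POU2AF1, which encodes the coactivator of OCT1 and OCT2, and 1 at YY1. POU2AF1 had an interval with 9.82 and 11.5 CPM in control and 4.34 and 5.35 CPM in shIRF4 (log2 fold change -1.18 ± 0.16, SE, adjusted p = 1.01e-05) and another with -1.14 (adjusted p = 5.44e-05). The YY1 interval was weak, with 3.61 and 4.46 CPM in control and 1.68 and 1.09 CPM in shIRF4 (log2 fold change -1.45, adjusted p = 0.000231). Among 12 genes of replication-independent variants, 9 had intervals, and 1 of their 16 intervals rose and 0 fell (6.25% called, median 0.04). That rise was at H3-3B, which encodes H3.3, with 43.9 and 44.0 CPM in control and 52.4 and 53.5 CPM in shIRF4 (log2 fold change 0.27 ± 0.07, SE, adjusted p = 0.00658). Among 20 genes of histone chaperones and deposition, 6 of 58 intervals fell and 2 rose (13.8% called, median 0.03). These included a fall at CABIN1 from a mean of 11.7 to 5.06 CPM (log2 fold change -1.33, adjusted p = 8.62e-06). A fall at NAP1L4 was at a weak interval, from 3.62 to 1.69 CPM (-1.03, adjusted p = 0.00353). A rise at CHAF1A, a subunit of the CAF-1 chaperone, was at a still weaker one (1.57, adjusted p = 0.000327). It measured 0.839 and 1.04 CPM in control and 2.66 and 3.16 CPM in shIRF4.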

How the data were processed

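ATAC-seq libraries of TMD8 cells, 2 control and 2 shIRF4, were compared. The authors deposited raw counts of read 5′ ends per merged peak; per the file headers these come from featureCounts 2.0.0, with marked duplicates ignored and fractions of multi-mapping reads requested, yet 0 counts were non-integer. Coordinates are those of hg38, the build named in the submitters' processing notes. For the aligner, the peak caller and any shift of read ends, the entry is "not given in the sources used here". Total counts were 12152153 and 13609123 in control and 17954924 and 9112860 in shIRF4. The control libraries lay close to counting noise (chi-square of 1.04 per degree of freedom, p = 1.77e-16; 2.01 for the shIRF4 libraries), so an alternative counted them as 1 sample.

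Counts were tested two-sided with edgeR 4.0.16 in R 4.3.3 (filterByExpr, TMM factors from 0.9809 to 1.026, glmQLFit without the legacy and robust options) on 73028 of 73135 intervals and on sums for 16295 genes, with Benjamini-Hochberg adjustment and a threshold of 0.05. SE is the size of the log2 fold change divided by the square root of F. CPM are counts per 1000000 of the scaled library total. Alternatives were DESeq2 1.42.0, other scaling, filters, distance limits and left-out libraries. Among 73028 simulated intervals with 200 changed, recovery was 42% at 1.5-fold and 80% at 2-fold.

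The genes, lists and tests were chosen with earlier results of these data known. The split by promoter window, the 50 CPM and 500 kb limits, library totals kept after filtering, and the sequences printed were chosen after values were seen. Named intervals are those called, the brightest of each cluster, those of H1-10, and the 3 of smallest p per other list; H1-2, H1-3, H2BC10, H2AC7 and the near-copies were added after their values were seen. Results for 1 of the genes are counted in the totals but not reported here.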

Additional observations from a re-analysis of the deposited data

How the results depend on the processing

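In every alternative all 9 falls stayed negative and both rises positive, but the calls depended on the settings. The groups did not overlap at these intervals, so leaving out a library could hardly reverse a sign. Library totals without scaling factors gave 4 lower and 4 higher intervals, against 13.6% and 9.83% of all intervals. They gave 8 lower genes, against 8.76% of all genes. The added rises were at H4C14 (0.62) and at H2BC13 to H2BC14 (0.38). The same setting gave log2 ratios of summed CPM of 0.03 for H2BC18 to H2AC21, -0.06 for H2AC1 to H4C8, 0.02 for H2BC11 to H2AC12, -0.10 for H2BC13 to H2BC17 and -0.04 for all histone intervals, against -0.01, -0.10, -0.02, -0.15 and -0.08 with TMM factors. DESeq2 gave 0 lower and 0 higher intervals, with a lowest adjusted p of 0.12, and 6 lower genes. With the control pair counted as 1 sample, fewer histone intervals and genes were called lower, as were fewer of all intervals and genes. That fit leaves 1 control sample, so only its effect sizes are given. The median log2 fold change was -0.04 over the 75 histone intervals and -0.10 over the 70 histone genes. Leaving out each library in turn gave 3 to 11 lower and 1 to 5 higher intervals, 6 to 26 lower genes, and log2 ratios of 0.09 to 0.29 for H1-10 to H1-8 and -0.14 to -0.07 for H2AC1 to H4C8. Of the 9 falls, 4 were kept when control replicate 1 was left out, 3 when control replicate 2 was, and 7 when either shIRF4 library was. Over all intervals, the fits that left out a library called 8.77% to 18.0% lower and 3.61% to 9.36% higher. Over all genes they called 6.58% to 16.4% lower. Both highest counts of lower histone members came without shIRF4 replicate 1, where 8.77% of all intervals and 10.6% of all genes were lower. Each of these fits leaves 1 library in a group, so its calls are weak evidence. With a 10 kb limit, 1 gene, H4C4, was higher (0.19), against 5.97% of all genes. The cause of these changes was not tested.

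The replicate block gave 10 lower and 2 higher intervals, against 15.6% and 7.1% of all intervals. H2BC12L was the added fall (-0.64, adjusted p = 0.0497). The block gave 24 lower genes, against 12.3% of all genes. Same-numbered libraries deviated with a correlation of -0.026. The control libraries lay close to counting noise, so this value cannot show whether same-numbered libraries were paired. With 2 libraries a group, the simulation recovered 42% of 1.5-fold changes placed at random among all tested intervals, whose median control level was 6.39 CPM. Histone intervals were brighter, with a median of 23.2 CPM, so this share does not give the recovery at them. Most histone differences were smaller than 1.5-fold, so an interval that did not pass may still differ.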
